A study of Mus musculus with 6 samples.

Results

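The glucocorticoid receptor gene Nr3c1 and 8 genes known as its targets were examined in subcutaneous CT26.WT tumors, 9 genes of the 55487 in the count table. The 9 genes were taken by symbol, and the set was selected on the difference between the same groups of tumors, which was known when the genes were listed. The values below are therefore a description of these genes, and no p is given for them. CT26.WT is a colon carcinoma line of the BALB/c mouse, and here it grew, with WT as the labelled genotype, under the skin of immunocompetent male BALB/c mice bought, per the study's methods, at 4 weeks of age. Injections into the tail vein were repeated every 48 h, with 100 µL of an IFN-γ solution of 100 ng/ml for the 3 IFN-γ tumors and with 100 µL of PBS for the 3 control tumors. The sources used here name no glucocorticoid treatment, no hormone level and no hour of collection. The comparison addresses which genes differ when IFN-γ accelerates the growth of these tumors. The tumors are numbered separate samples, and whether each came from its own mouse is not stated, so the p-values measure the spread between these samples.

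The glucocorticoid receptor rests in the cytoplasm in a complex with heat shock protein 90 and its partners. Once it binds corticosterone, the main glucocorticoid of the mouse, it moves to the nucleus, where it switches on genes next to its response elements and restrains inflammatory genes driven by other factors. Secretion of the hormone by the adrenal gland follows the time of day and rises with stress. Most cells of a tumor, malignant or host, carry the receptor, and the genes below are known to respond to it in many tissues, although each also answers to other inputs.

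Each library came from a whole tumor, so a change in the number of cells of a type and a change in RNA per cell cannot be told apart. Libraries held 15759300 to 17559680 counts, and levels are given as CPM (counts relative to the TMM-scaled size of the library), where 3 counts, taken as the floor for a gene at 0, equal 0.169 to 0.188 CPM. Of the 15114 genes that passed the filter on low counts, all 9 among them, edgeR's quasi-likelihood test at an adjusted p under 0.05 placed 12 above and 5 below the controls, and 1539 had an unadjusted p under 0.05. IFN-γ tumor 3 stood apart from IFN-γ tumors 1 and 2. Its summed level of 24 interferon response genes was 5150 CPM, within the control range of 4080 to 5360 CPM, against 8020 and 8630 CPM in the other two. B2m made up 2710 CPM of that sum in IFN-γ tumor 3, above its 2040 to 2380 CPM in the controls. Over the 24 genes, the median log2 ratio of IFN-γ tumor 3 to the control mean was -0.10. The epithelial and colon markers of the labelled cell type were nearly absent, with 12.8 to 27.1 CPM for 10 markers together, Cdx2 at 0 counts in every tumor, and 6 of the 10 too low to be tested.

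The sequences before the annotated starts of the targets are shown for the 3 targets whose tumor groups did not overlap, Tsc22d3, Fkbp5 and Ddit4, for the metallothioneins Mt1 and Mt2, which lie beside each other on chromosome 8, and for the start of Sgk1 that held the most matches. They are RefSeq windows of GRCm38.p6 that span 250 bases before a start, on the strand of the gene, shortened where an exon of GENCODE M21 begins. Capitals mark matches, on either strand, to a single arm of the glucocorticoid response element (TGTTCT), the metal response element core (TGCACNC or TGCGCNC), the E-box of the clock factors (CACGTG) or the D-box (TTATGTAA or TTACGTAA). The bases before the second start of Tsc22d3 hold none of these. The lines give Tsc22d3 before its farthest upstream start (chrX:140600660-140600772, minus strand) and before its second start (chrX:140548572-140548821, minus strand), Fkbp5 (chr17:28486150-28486399, minus strand), Ddit4 (chr10:59951835-59952020, minus strand), Mt2 (chr8:94172368-94172617, plus strand), Mt1 (chr8:94178839-94179081, plus strand) and the fifth of 6 starts of Sgk1 (chr10:21993640-21993889, plus strand).
Tsc22d3 upstream start: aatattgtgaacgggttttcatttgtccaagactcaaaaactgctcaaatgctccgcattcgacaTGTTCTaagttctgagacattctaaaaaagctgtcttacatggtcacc
Tsc22d3 second start: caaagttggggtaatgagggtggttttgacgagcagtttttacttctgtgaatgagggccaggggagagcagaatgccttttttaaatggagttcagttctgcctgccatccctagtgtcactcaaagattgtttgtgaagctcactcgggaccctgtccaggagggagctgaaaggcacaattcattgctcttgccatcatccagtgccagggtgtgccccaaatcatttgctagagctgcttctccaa
Fkbp5: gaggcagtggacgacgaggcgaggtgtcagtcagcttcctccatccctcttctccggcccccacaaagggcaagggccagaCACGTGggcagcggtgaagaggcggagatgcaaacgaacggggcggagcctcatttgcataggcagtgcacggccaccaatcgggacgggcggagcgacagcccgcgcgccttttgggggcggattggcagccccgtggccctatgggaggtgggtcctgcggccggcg
Ddit4: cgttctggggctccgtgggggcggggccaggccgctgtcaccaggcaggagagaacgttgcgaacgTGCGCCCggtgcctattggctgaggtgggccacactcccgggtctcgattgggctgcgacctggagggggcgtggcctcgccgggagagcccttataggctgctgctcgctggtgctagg
Mt2: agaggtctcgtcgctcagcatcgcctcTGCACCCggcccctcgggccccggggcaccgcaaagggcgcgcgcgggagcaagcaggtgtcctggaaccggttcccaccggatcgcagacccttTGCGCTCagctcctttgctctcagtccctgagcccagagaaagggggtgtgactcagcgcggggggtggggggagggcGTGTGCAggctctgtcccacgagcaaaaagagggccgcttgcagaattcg
Mt1: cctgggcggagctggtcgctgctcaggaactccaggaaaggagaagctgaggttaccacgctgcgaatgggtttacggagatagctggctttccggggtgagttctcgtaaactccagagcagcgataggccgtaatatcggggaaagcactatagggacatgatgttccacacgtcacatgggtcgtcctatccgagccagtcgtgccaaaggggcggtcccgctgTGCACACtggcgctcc
Sgk1: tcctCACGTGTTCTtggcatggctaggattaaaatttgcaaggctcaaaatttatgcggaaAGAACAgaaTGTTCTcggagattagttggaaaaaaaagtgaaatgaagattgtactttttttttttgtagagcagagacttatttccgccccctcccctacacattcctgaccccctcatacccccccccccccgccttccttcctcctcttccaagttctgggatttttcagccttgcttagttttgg

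Windows of 7 of the 9 genes were searched, with 14 starts. No window was available for Zbtb16, and those of chromosome 18, where Nr3c1 lies, were left out. The arm TGTTCT stood in 4 of the 14 windows of 250 bases, 1 before the upstream start of Tsc22d3, within the bases printed, and 3 before starts of Sgk1, with 3 copies in the window printed. Of these copies of Sgk1, 2 face each other with 3 bases between them, the spacing of the full response element, and the other shares its first letters with the E-box. The arm stood in 16.1% of the 32851 windows of all genes. Matches to the metal core stood 3 times before Mt2, and once each before Mt1 and Ddit4 (21.4% of all windows had a match). An E-box was found before Fkbp5 and in the window of Sgk1 printed (6.02% of all windows), and a D-box before none of the 7 genes (0.931%). These are matches of letters and do not show binding, and glucocorticoid response elements can lie far outside such windows.

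Nr3c1 (ENSMUSG00000024431), which encodes the receptor, is a protein-coding gene on the minus strand of chromosome 18, from 39410545 to 39519421 in GRCm38. It was measured at 241, 232 and 230 CPM in control tumors 1, 2 and 3 and at 254, 270 and 262 CPM in their IFN-γ counterparts. Every IFN-γ tumor lay above every control, by a gap of 5.46% between the nearest pair, and the spread within each group was the smallest of the 9 genes (coefficient of variation 2.54% and 3.09%). The means were 234 ± 5.96 CPM and 262 ± 8.09 CPM (SD, n = 3 each), a log2 fold change of 0.16 with a standard error of 0.069, so the transcript of the receptor differed 1.12-fold. The log2 fold change stayed between 0.13 and 0.19 under all 14 alternatives in processing.

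Tsc22d3 (ENSMUSG00000031431, chromosome X, 140539528 to 140600659, minus strand) encodes GILZ, a leucine zipper protein that is among the best known glucocorticoid-induced genes of immune cells and dampens inflammatory signaling. The control tumors had 75.5, 56.4 and 59.9 CPM, and the IFN-γ tumors had 125, 137 and 151 CPM. The groups were wide apart, the lowest IFN-γ tumor being 65.3% above the highest control, and IFN-γ tumor 3 had the most. The mean rose from 63.9 ± 10.2 to 137 ± 12.9 CPM (SD, n = 3 each), a 2.15-fold difference (log2 fold change 1.10, standard error 0.12). Among the log2 fold changes of all 15114 genes tested it stood at the 99.3th percentile. It was the 1 gene of the 9 past the threshold of edgeR, where 0.0794% of all genes tested were called higher and 0.0331% lower. Since the set was chosen with this comparison in view, nothing is read from that count. The call was lost in the fits without control tumor 2, control tumor 3, IFN-γ tumor 1 or IFN-γ tumor 2, in which the log2 fold change lay between 1.02 and 1.17.

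Fkbp5 (ENSMUSG00000024222, chromosome 17, 28399094 to 28517527, minus strand) encodes FKBP51, the immunophilin that the receptor induces and that in turn lowers the affinity of the receptor for hormone. It stood at 155, 154 and 171 CPM in the controls and at 208, 199 and 274 CPM in the IFN-γ tumors. The groups did not overlap, and IFN-γ tumor 3 lay well above the other two. The means were 160 ± 9.34 and 227 ± 41.0 CPM (SD, n = 3 each), with a log2 fold change of 0.51 (standard error 0.13). With IFN-γ tumor 3 left out, the value was 0.34.

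Sgk1 (ENSMUSG00000019970, chromosome 10, 21882184 to 21999903, plus strand) encodes a kinase of ion transport and cell survival that glucocorticoids and mineralocorticoids induce. Its levels were 78.0, 75.7 and 96.3 CPM in the controls and 117, 138 and 87.7 CPM in the IFN-γ tumors. IFN-γ tumors 1 and 2 were above all controls, while IFN-γ tumor 3 fell inside the control range, the reverse of its place for Fkbp5. The log2 fold change was 0.46 (standard error 0.16, means 83.3 ± 11.3 and 114 ± 25.5 CPM, SD, n = 3 each), 0.61 without IFN-γ tumor 3, and 0.30 if IFN-γ tumor 2 was left out instead. IFN-γ tumors 1 and 2 also had the highest summed level of 10 macrophage markers, 5090 and 6180 CPM against 3390 to 4080 CPM in the controls and 3720 CPM in IFN-γ tumor 3. Of the 10 markers, 8 had a log2 fold change above 0 and 2 below. Lyz2 and Mrc1 were picked after their values were seen. Lyz2 made up 2580 and 3460 CPM of the sums in IFN-γ tumors 1 and 2. Mrc1 was lower in these tumors, at 368 and 369 CPM against 391 to 433 CPM in the controls. Several other lists also had their highest sums in IFN-γ tumors 1 and 2, among them the interferon response, T cell, NK cell and red cell lists. The part of macrophages or of any of these lists in the level of Sgk1 was not tested.

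Ddit4 (ENSMUSG00000020108, chromosome 10, 59949669 to 59951834, minus strand) encodes REDD1, an inhibitor of mTORC1 that answers to glucocorticoids, hypoxia and several stresses. It was found at 37.1, 24.2 and 28.5 CPM in the controls and at 45.8, 38.4 and 37.4 CPM in the IFN-γ tumors. The groups did not overlap, but IFN-γ tumor 3 exceeded control tumor 1 by only 0.578%. The log2 fold change was 0.44 (standard error 0.16, means 29.9 ± 6.57 and 40.5 ± 4.61 CPM, SD, n = 3 each).

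Klf9 (ENSMUSG00000033863, chromosome 19, 23141226 to 23168134, plus strand) encodes a zinc finger factor that the receptor induces and that also follows the circadian clock in many tissues. It was at 42.6, 39.4 and 36.6 CPM in the controls and at 43.9, 40.6 and 45.4 CPM in the IFN-γ tumors. The groups overlapped, since IFN-γ tumor 2 lay below control tumor 1, and the log2 fold change was 0.13 (standard error 0.089), or 0.072 without control tumor 3. Zbtb16 (ENSMUSG00000066687, chromosome 9, 48654297 to 48836222, minus strand) encodes PLZF, a zinc finger factor of innate-like lymphocytes that glucocorticoids induce strongly in many human cells. Control tumors gave 5, 11 and 14 reads of it and IFN-γ tumors 11, 18 and 9 reads, so its level was between 0.313 and 1.10 CPM and the groups overlapped. With so few reads the standard error of its log2 fold change (0.39) was 0.47, and a difference of this size was not detectable at this depth. The value was 0.038 without IFN-γ tumor 2, 0.11 without control tumor 1 and 0.68 without control tumor 3.

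Mt1 (ENSMUSG00000031765, chromosome 8, 94179082 to 94180327, plus strand) and Mt2 (ENSMUSG00000031762, chromosome 8, 94172664 to 94173568, plus strand) encode metallothioneins, small cysteine-rich proteins that bind zinc and copper and are induced by metals as well as by glucocorticoids. Mt1 was measured at 190, 173 and 173 CPM in the controls and at 174, 198 and 262 CPM in the IFN-γ tumors. Mt2 was measured at 219, 230 and 272 CPM in the controls and at 273, 236 and 357 CPM in the IFN-γ tumors. Both genes had their highest value in IFN-γ tumor 3, and for both the other IFN-γ tumors lay within or next to the control range. The log2 fold changes, 0.24 for Mt1 and 0.26 for Mt2, had standard errors of 0.14 and 0.15. Without IFN-γ tumor 3 they were 0.053 and 0.076, whereas Mt1 was at 0.37 without IFN-γ tumor 1 and Mt2 at 0.39 without IFN-γ tumor 2. The 2 genes are close copies, and how the counting treated reads that match both is not given in the sources used here. Taken as a sum, they had 410, 403 and 444 CPM in the controls and 448, 434 and 619 CPM in the IFN-γ tumors. The sum does not depend on how such reads were divided between them if each was counted once, which is not known.

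**Figure D1:**
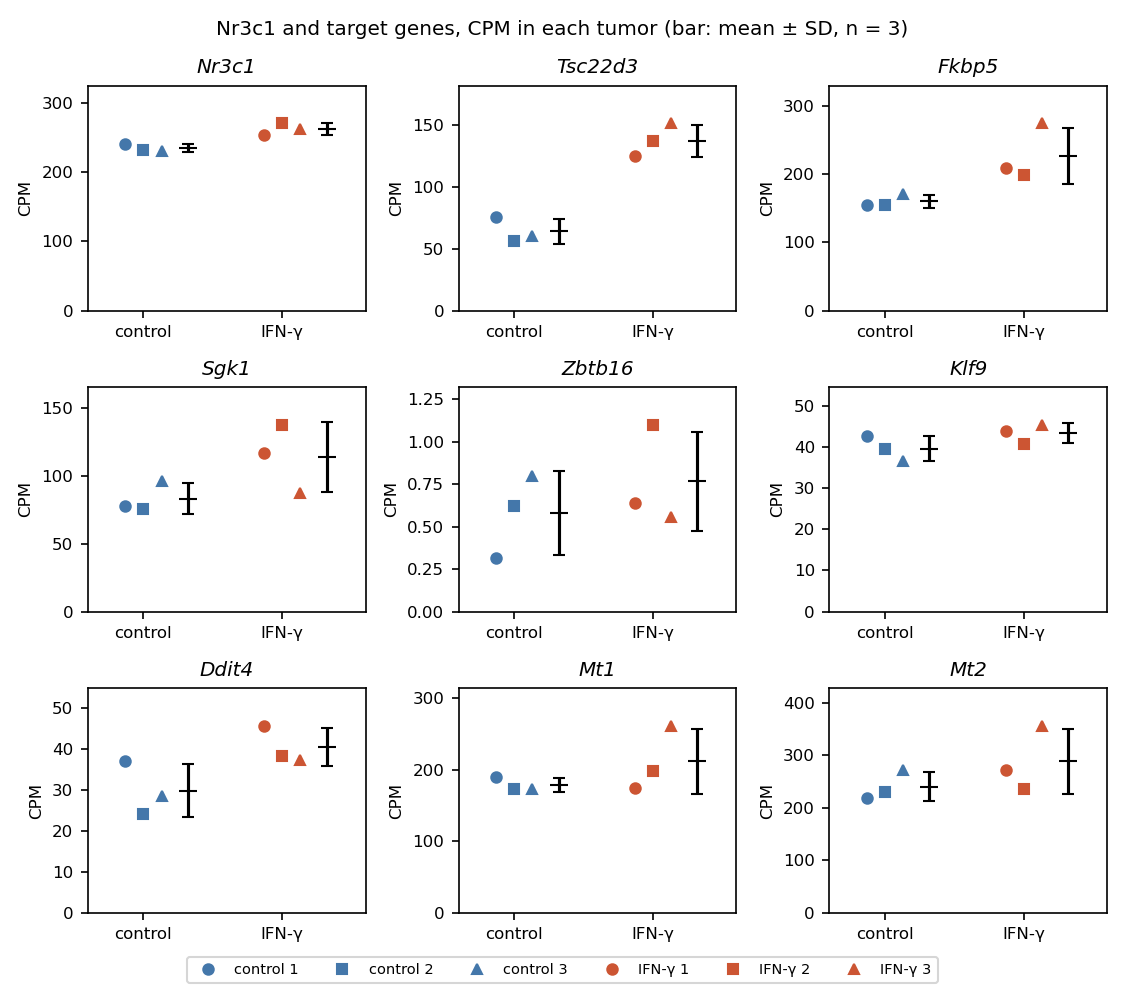
CPM of Nr3c1 and 8 target genes in each of the 3 control and 3 IFN-γ tumors, one panel for each gene with its own axis from 0, points by tumor and bars for the mean ± SD. The IFN-γ tumors lie above all controls for Nr3c1, Tsc22d3, Fkbp5 and, by 0.578%, Ddit4, and IFN-γ tumor 3 is the highest tumor for Tsc22d3, Fkbp5, Klf9, Mt1 and Mt2.

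Set side by side, the log2 fold changes of the 9 genes were all above 0, from 0.13 for Klf9 to 1.10 for Tsc22d3, with a median of 0.39, while the median of all genes tested was 0.0015 and 50.4% were above 0. In 4 of the 9 genes, Nr3c1, Tsc22d3, Fkbp5 and Ddit4, every IFN-γ tumor was higher than every control, a pattern that 7.62% of all genes tested showed in this direction and 7.5% in the other. The lowest tumor was a control for each of the 9 genes. The highest was IFN-γ tumor 3 for 5 genes, IFN-γ tumor 2 for Nr3c1, Sgk1 and Zbtb16, and IFN-γ tumor 1 for Ddit4. These counts rest on the comparison by which the genes were selected and are given as a description.

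**Figure D2:**
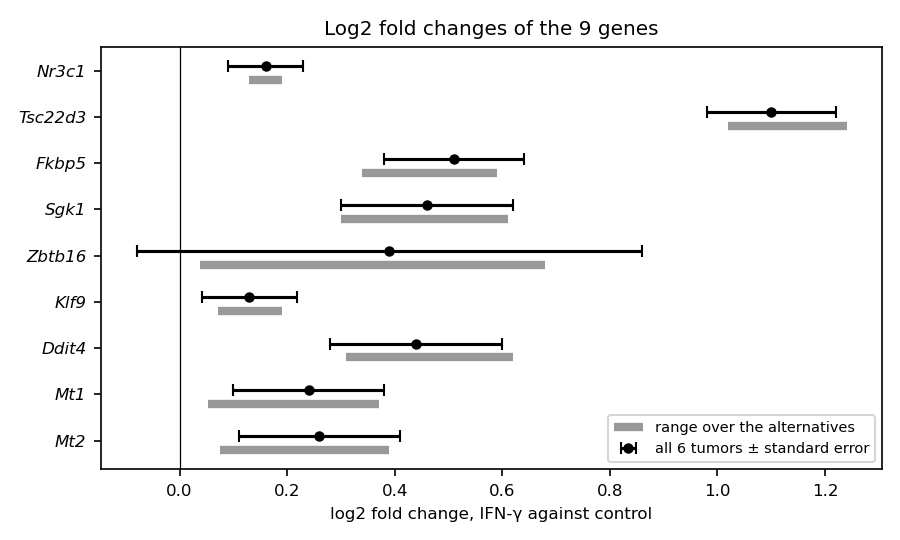
Log2 fold change, IFN-γ against control, of the 9 genes from edgeR with all 6 tumors (points, bars for the standard error) and the range of the same value over the alternatives (grey lines). Tsc22d3, at 1.10, is separate from the other genes, which lie between 0.13 and 0.51, and no grey line crosses 0.

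Levels of different genes were compared per kb of annotated exon. In the control tumors Mt2 (409 CPM per kb) and Mt1 (143 CPM per kb) were highest, with the exons of Mt1 covering its introns in the annotation, which lowers its value. Nr3c1 followed at 30.5 ± 0.776 CPM per kb (SD, n = 3). Ddit4 (17.1 ± 3.75), Sgk1 (17.0 ± 2.30), Fkbp5 (16.9 ± 0.986) and Tsc22d3 (14.7 ± 2.34 CPM per kb) did not differ beyond their spread. Klf9 was at 8.21 CPM per kb and Zbtb16 at 0.109 CPM per kb. In the IFN-γ tumors Tsc22d3, at 31.7 ± 2.97 CPM per kb (SD, n = 3), stood beside Nr3c1, at 34.1 ± 1.05 CPM per kb, and above Fkbp5, Sgk1 and Ddit4, which lay between 23.1 and 24.0 CPM per kb on average.

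The proteins that hold and fold the receptor showed no calls. Of 14 genes for chaperones and immunophilins, all tested, none passed the threshold of edgeR or was called by DESeq2 or limma-voom, and 1 had an unadjusted p under 0.05, with a median log2 fold change of 0.020. Hsp90ab1, the constitutive heat shock protein 90, was at 3110 to 3560 CPM in all tumors and had a log2 fold change of 3.9e-05. Hspa8, the constitutive HSC70 chaperone, was the gene whose groups did not overlap, at 615 to 751 CPM in the controls and 804 to 895 CPM in the IFN-γ tumors (log2 fold change 0.27, adjusted p = 0.39, edgeR). Of 18 cofactors, all tested, none passed under the 3 tools either and 1 had an unadjusted p under 0.05 (median log2 fold change -0.046). Ncoa1, the coactivator SRC-1, was at 28.9 to 31.3 CPM in the controls and 31.7 to 38.9 CPM in the IFN-γ tumors, which did not pass (log2 fold change 0.27, adjusted p = 0.42, edgeR). Ehmt2, the G9a methyltransferase, was at 226 to 233 CPM and 250 to 255 CPM, without overlap (log2 fold change 0.13, adjusted p = 0.53, edgeR), and Trim28, a corepressor, overlapped (log2 fold change -0.052, adjusted p = 0.87, edgeR).

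Genes that supply, carry or clear the hormone were mostly too low to be tested. Of 18 genes for local activation, synthesis, transport and sensing, 8 passed the filter. The genes at 0 counts in every tumor, named after their values were seen, were Hsd11b2, the enzyme that inactivates glucocorticoids, Hsd3b1, Cyp21a1 and Cyp11b1 of steroid synthesis, Serpina6, the carrier of the hormone in plasma, and Crhr1, a receptor of the stress axis, so that levels below 0.169 to 0.188 CPM, the floor of 3 counts, remain possible. Other genes of steroid synthesis were present, Cyp11a1, the side chain cleavage enzyme, at 4.91 to 7.94 CPM in the controls and 6.44 to 10.7 CPM in the IFN-γ tumors, and Star, the cholesterol carrier, at 1.06 to 1.63 and 1.47 to 1.86 CPM. Their log2 fold changes were 0.43 and 0.37 (adjusted p = 0.61 and 0.74, edgeR). Hsd11b1, which reactivates the hormone and was, with Cyp11a1, Star and Nr3c2, picked after its values were seen, was at 1.44, 1.80 and 3.20 CPM in the controls and at 4.93, 6.96 and 1.11 CPM in the IFN-γ tumors. IFN-γ tumor 3 was the lowest of the 6, and the log2 fold change of 1.01 had a standard error of 0.59 (adjusted p = 0.61, edgeR). Nr3c2, the mineralocorticoid receptor, which also binds corticosterone, was at 0.124 to 0.794 CPM, too low to be tested. The pumps Abcb1a and Abcb1b, which export glucocorticoids, were at 84.3 to 127 and 297 to 391 CPM, with log2 fold changes of -0.30 and -0.15 (adjusted p = 0.45 and 0.74, edgeR). Akr1c14, a 3-alpha-hydroxysteroid dehydrogenase, was at 3.95 to 7.77 CPM in the controls and at 9.03 to 13.7 CPM in the IFN-γ tumors (log2 fold change 1.0, adjusted p = 0.29, edgeR). None of the 8 genes passed in edgeR or limma-voom, 1 was called higher by DESeq2, and 2 had an unadjusted p under 0.05.

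A wider list of 50 other genes known to be induced by glucocorticoids was examined, written with earlier results of these tumors known. Of the 42 tested, 1 rose and 1 fell, and 33 had a log2 fold change above 0, with a median of 0.19 against 0.0015 for all genes tested. Per1, a repressor of the circadian clock with a glucocorticoid response element of its own, rose from 20.3, 19.9 and 15.8 CPM to 62.2, 66.2 and 47.8 CPM (log2 fold change 1.66, standard error 0.15, adjusted p = 0.0062, edgeR, higher in 3 of 3 tumors). Nfil3, a repressor that binds the D-box, fell from 28.8, 28.5 and 32.5 CPM to 10.9, 11.5 and 12.6 CPM (log2 fold change -1.36, standard error 0.11, adjusted p = 0.0043, edgeR, lower in 3 of 3). Both belong also to the list of clock genes, and without these the remaining 40 genes gave 0 calls in edgeR and in limma-voom, 1 higher and 1 lower in DESeq2, 12 higher and 2 lower at an unadjusted p under 0.05, and the same median of 0.19. The call of Per1 was lost without control tumor 2 or IFN-γ tumor 1 (adjusted p = 0.058 and 0.053, edgeR). Without IFN-γ tumor 3 the list of 50 had 4 genes higher and 3 lower, and a median of 0.3.

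Anxa1 and Txnip had the highest mean CPM of the list. Anxa1, a classical mediator of glucocorticoid action that limits leukocyte influx, was at 881 to 1040 CPM in the controls and 920 to 1070 CPM in the IFN-γ tumors (log2 fold change 0.036, adjusted p = 0.94, edgeR). Txnip, a brake on glucose uptake, was at 410, 422 and 473 CPM in the controls and at 543, 550 and 511 CPM in the IFN-γ tumors, without overlap (log2 fold change 0.30, adjusted p = 0.30, edgeR). Cebpd, Dusp1, Cdkn1a and Errfi1 were picked from the list after their values were seen. Cebpd, a factor of the acute phase response, was at 21.4 to 27.2 CPM in the controls and 41.4 to 51.6 CPM in the IFN-γ tumors and missed the threshold (log2 fold change 0.85, adjusted p = 0.074, edgeR). Dusp1, a phosphatase of MAP kinases, stands also in the list of immediate early genes. It was spread widely, at 71.1, 42.7 and 105 CPM in the controls and 158, 206 and 101 CPM in the IFN-γ tumors (log2 fold change 1.08, adjusted p = 0.35, edgeR). Cdkn1a and Errfi1, inhibitors of the cell cycle and of the EGF receptor, had lower means in the IFN-γ group, with log2 fold changes of -0.65 and -0.46 (adjusted p = 0.15 and 0.46, edgeR).

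**Figure D3:**
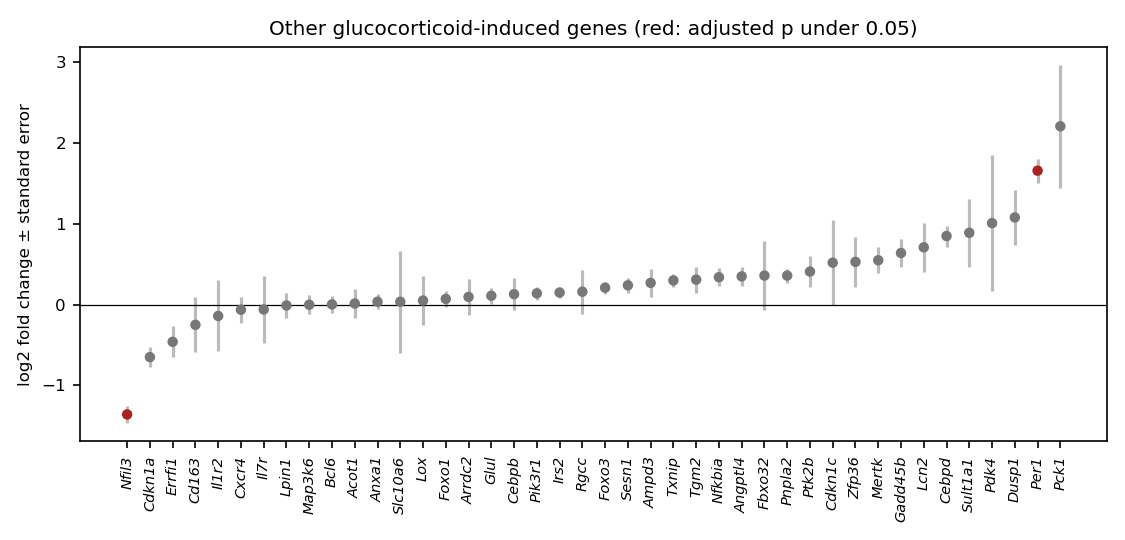
Log2 fold change (points) and standard error (bars), IFN-γ against control, of the 42 tested genes of the wider glucocorticoid-induced list, in order. Per1 (1.66) and Nfil3 (-1.36) passed the adjusted threshold, and 33 of the 42 points lie above 0.

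Inflammatory genes that glucocorticoids restrain held values on both sides of 0. Of 25 such genes, 24 were tested, 12 with a log2 fold change above 0 and 12 below. None passed in edgeR or limma-voom, and DESeq2 called 1 lower. At an unadjusted p under 0.05, 1 was higher and 3 were lower. The median log2 ratio of the list to the control mean was 0.066, 0.40 and -0.30 in IFN-γ tumors 1, 2 and 3. Without IFN-γ tumor 3, 2 passed as higher and 2 as lower in edgeR. Ptgs2, cyclooxygenase-2, was at 153, 125 and 121 CPM in the controls and at 91.1, 89.4 and 119 CPM in the IFN-γ tumors (log2 fold change -0.41, adjusted p = 0.37, edgeR). Sele, the endothelial selectin, was at 84.5 to 117 CPM in the controls and 54.5 to 81.9 CPM in the IFN-γ tumors (log2 fold change -0.60, adjusted p = 0.30, edgeR). Vcam1, an adhesion molecule that IFN-γ is known to induce, was at 266 to 335 CPM and 345 to 405 CPM (log2 fold change 0.30, adjusted p = 0.39, edgeR). Ptges, the prostaglandin E synthase, had overlapping groups at 155 to 174 CPM (log2 fold change -0.074, adjusted p = 0.80, edgeR). Among 22 genes that act with the SGK1 kinase or with REDD1 in the mTOR pathway, 19 were tested and none passed in the 3 tools, with 3 at an unadjusted p under 0.05 and a median log2 fold change of -0.0082. Nedd4, a ubiquitin ligase of the SGK1 pathway, was at 720 to 732 CPM and 688 to 713 CPM (log2 fold change -0.048, adjusted p = 0.86, edgeR), and Foxo3, a substrate of SGK1, at 48.5 to 53.5 CPM and 57.1 to 60.7 CPM (log2 fold change 0.21, adjusted p = 0.39, edgeR).

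Relatives of the targets held no calls either. None of the 3 other Tsc22 genes passed in the 3 tools and 1 had an unadjusted p under 0.05. Tsc22d4, of the same family as Tsc22d3, was at 67.2 to 79.7 CPM in the controls and 83.3 to 88.0 CPM in the IFN-γ tumors (log2 fold change 0.23, adjusted p = 0.39, edgeR). Tsc22d1 was at 220 to 237 CPM and 194 to 238 CPM with overlap (log2 fold change -0.12, adjusted p = 0.73, edgeR). Of the 12 tested genes of the Klf family other than Klf9, none passed in the 3 tools and 1 had an unadjusted p under 0.05. Klf2, a factor of endothelial cells and resting lymphocytes, was at 31.9 to 56.9 CPM in the controls and 62.2 to 65.5 CPM in the IFN-γ tumors (log2 fold change 0.49, adjusted p = 0.41, edgeR). Klf3 and Klf6, which had the highest mean CPM of the family list, had log2 fold changes of 0.027 and 0.13 with overlap of the groups (adjusted p = 0.94 and 0.74, edgeR). For the metallothioneins, 10 other genes of the response to metals and oxidants were tested, and 9 had a log2 fold change below 0, with a median of -0.12. None of them passed in the 3 tools and 1 had an unadjusted p under 0.05. Slc39a14, a zinc importer, was at 126 to 158 CPM in the controls and 94.1 to 130 CPM in the IFN-γ tumors (log2 fold change -0.36, adjusted p = 0.40, edgeR). Txnrd1 and Srxn1, both of the oxidant response, had lower values in every IFN-γ tumor than in any control, the log2 fold change being -0.17 for both (adjusted p = 0.52 and 0.50, edgeR).

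The clock genes differed between the groups of tumors, and skin markers stood out in 1 tumor. Adipocyte markers were higher on average, with calls in DESeq2 and none in edgeR or limma-voom. The part of these lists in the levels of the 9 genes was not tested. Of 18 tested clock genes, 7 were higher and 2 lower in edgeR. The 7 became 4 without control tumor 2 or IFN-γ tumor 1 and 11 without the filter on low counts, and the 2 became 4 without IFN-γ tumor 3. The time of collection was not given, and a difference in hour between the groups cannot be told apart from the treatment. Dbp, an output factor of the clock, went from 6.80 to 8.57 CPM in the controls to 132 to 168 CPM in the IFN-γ tumors (adjusted p = 8.7e-06, edgeR), and Arntl, the BMAL1 activator, from 67.5 to 71.3 CPM to 14.2 to 17.1 CPM (adjusted p = 7.3e-05, edgeR). Per2, Nr1d1, Nr1d2, Tef and Bhlhe41 also rose, with log2 fold changes of 0.88, 2.82, 2.19, 2.15 and 0.89 (adjusted p = 0.0064, 0.0055, 0.0043, 0.00011 and 0.048, edgeR), while Clock, at 149 to 172 and 100 to 121 CPM, missed the threshold (log2 fold change -0.54, adjusted p = 0.11, edgeR). IFN-γ tumor 3 shared this pattern, with a median log2 ratio to the control mean of 0.99 over the clock list against 0.83 and 0.79 in IFN-γ tumors 1 and 2. The 10 adipocyte markers summed to 128 to 179 CPM in the controls and 198 to 270 CPM in the IFN-γ tumors, a sum made up mostly of Fabp4, at 91.0 to 134 and 118 to 141 CPM. The median log2 fold change of the 10 genes was 2.14. Adipoq, Plin1, Cidec, Cfd, Lep and Retn, picked after their values were seen, lay between 2.05 and 3.30 without overlap of the groups. None of the 10 passed in edgeR or limma-voom, while DESeq2 called 7 higher and 9 had an unadjusted p under 0.05. None of their 10 genes was at 0 counts in every tumor. The 10 skin markers, 3 of them tested, summed to 79.5 CPM in IFN-γ tumor 3 and to 9.92 to 17.9 CPM in the other tumors. IFN-γ tumor 3 was also the tumor with the most Tsc22d3, Fkbp5, Klf9, Mt1 and Mt2. The skin markers had no call in the 3 tools and 1 gene at an unadjusted p under 0.05.

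Lists for other inputs of the same targets, and for the response to IFN-γ, held no calls in edgeR. Of 17 hypoxia genes, none passed in edgeR or limma-voom, DESeq2 called 3 higher and 5 had an unadjusted p under 0.05. Their sum was highest in IFN-γ tumor 3 (3980 CPM against 2760 to 3260 CPM in the others). Ldha and Aldoa made up 1550 and 844 CPM of it. Within the IFN-γ group, Ddit4 was lowest in that tumor and highest in IFN-γ tumor 1. Single hypoxia genes peaked in different tumors, Car9 in IFN-γ tumor 1 (21.6 CPM) and Ankrd37 in IFN-γ tumor 3 (12.6 CPM). The part of hypoxia in the level of Ddit4 was not tested. Car9 and Ankrd37 did not overlap between groups (log2 fold changes 1.55 and 0.89, adjusted p = 0.36 and 0.35, edgeR), whereas the glycolytic genes Ldha and Aldoa did (0.14 and 0.26, adjusted p = 0.77 and 0.47, edgeR). Of 15 genes of amino acid and endoplasmic reticulum stress, none passed in the 3 tools, 3 had an unadjusted p under 0.05, and the median log2 fold change was -0.11. Ppp1r15a, a phosphatase subunit of the stress response, was lower in every IFN-γ tumor (log2 fold change -0.33, adjusted p = 0.39, edgeR), and Atf4 and Hspa5 overlapped (-0.10 and -0.041, adjusted p = 0.82 and 0.91, edgeR). Of 19 immediate early genes, which respond within minutes to handling and tissue injury, none passed in the 3 tools and 5 had an unadjusted p under 0.05. Their sum was 1120 to 1820 CPM in the controls and 1510 to 1950 CPM in the IFN-γ tumors. Jund lay higher and Nr4a2 lower in every IFN-γ tumor (log2 fold changes 0.41 and -0.23, adjusted p = 0.37 and 0.42, edgeR), and Jun and Egr1 overlapped (0.27 and 0.067, adjusted p = 0.52 and 0.95, edgeR). The interferon response list had 24 of 24 log2 fold changes above 0, with a median of 0.59, none past the threshold in edgeR or limma-voom, 2 in DESeq2 and 12 at an unadjusted p under 0.05. Socs1 and B2m were the genes whose groups did not overlap (log2 fold changes 0.54 and 0.45, adjusted p = 0.14 and 0.22, edgeR), and Gbp2 was at 360 CPM in IFN-γ tumor 3 against 728 and 720 CPM in the other two (log2 fold change 1.04, adjusted p = 0.30, edgeR). Without IFN-γ tumor 3, 17 of the 24 genes passed in edgeR.

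**Figure D4:**
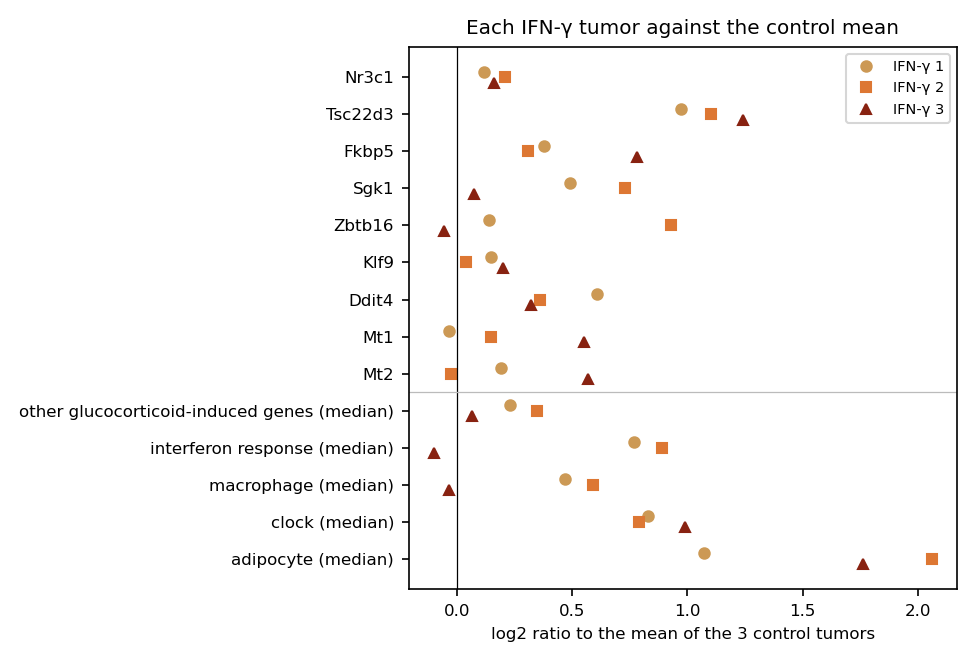
Log2 ratio of each IFN-γ tumor to the mean of the 3 controls, for the 9 genes and, under the line, as the median over 5 gene lists. A pseudocount of 0.5 CPM was added for the lists only. Tsc22d3 lies between 0.97 and 1.24 in all 3 tumors. The clock list lies at 0.79 to 0.99, the adipocyte list at 1.07 to 2.06 and the other glucocorticoid-induced genes at 0.066 to 0.35. Sgk1 falls to 0.073 in IFN-γ tumor 3, where the interferon response and macrophage lists are at -0.10 and -0.033.

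The 3 IFN-γ tumors differed in which targets were high. In IFN-γ tumors 1 and 2 the log2 ratios to the control mean were 0.49 and 0.73 for Sgk1, 0.38 and 0.31 for Fkbp5, and between -0.034 and 0.19 for the metallothioneins. In IFN-γ tumor 3 they were 0.073 for Sgk1, 0.78 for Fkbp5, 0.55 for Mt1 and 0.57 for Mt2, so that Sgk1 went from the highest of these 4 genes to the lowest, while Fkbp5 was above both metallothioneins in all 3 tumors. Tsc22d3 was the target whose ratio was near 1 or above in all 3, at 0.97, 1.10 and 1.24. Over the 6 tumors, the genes whose centred log2 CPM was closest to Tsc22d3 were Apoc1, Ciart and Ptger3, at a root mean square difference of 0.11, 0.14 and 0.14. Apoc1 and Ptger3 lay at or below 1.55 CPM, where the pseudocount of 0.5 CPM narrows differences, and their log2 fold changes from edgeR, 1.76 and 2.18, were larger than the 1.10 of Tsc22d3, so their closeness depends on that pseudocount. Ciart, a clock repressor, was at 4.96 to 8.25 CPM in the controls and 13.5 to 17.7 CPM in the IFN-γ tumors. Closest to Nr3c1 were Tnfrsf1a, Ehmt2 and Chfr, at 0.018, 0.025 and 0.028.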

How the data were processed

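RNA of 6 subcutaneous CT26.WT tumors, 3 control and 3 IFN-γ, was sequenced, and the authors deposited raw read counts for 55487 genes in 1 table. HISAT2 and the build mm10 are named in the submitters' processing notes, while versions, the counter, its annotation and its use of strand are not given in the sources used here, so reads of overlapping or antisense genes may be included. Of the gene identifiers, 99.4% were found in GENCODE M21, from which positions and exon lengths were taken. Of the list symbols, 2 had 2 genes in the table, and the gene with more counts was used.

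Counts were fitted with edgeR 4.0.16 in R 4.3.3 (filterByExpr, TMM, quasi-likelihood test, Benjamini-Hochberg adjustment over 15114 genes, threshold 0.05). Log2 ratios of single tumors used no pseudocount for the 9 genes and a pseudocount of 0.5 CPM for the medians over lists. The same pseudocount was used in finding the genes most alike. Alternatives were library size only, upper-quartile factors, DESeq2 1.42.0, limma-voom (limma 3.58.1), other filters on low counts, a prior count of 2, the replicate number as a block, and leaving out each tumor. Scripts were tested on simulated data.

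The 9 genes and all lists were chosen with earlier results of these data known. Some lists share genes, so their values are not independent. Txnip and Foxo3, for example, stand in the glucocorticoid-induced list and among the partners of SGK1 and REDD1. From each pathway list the text names every gene past the threshold, the 2 of highest mean CPM and the 2 of largest change among genes whose groups do not overlap, and any other gene is said to be picked or named after its values were seen, as was the marker Cdx2. For Nr3c1 and Tsc22d3 the 3 genes most alike over the 6 tumors are named. Promoter windows came from RefSeq (GRCm38.p6). A further motif searched in them is not reported here. With 15759300 to 17559680 counts a library, a gene at 0 could be at up to 0.188 CPM, a bound for counting error only.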

Additional observations from a re-analysis of the deposited data

How the results depend on the processing

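The 9 genes kept a log2 fold change above 0 under every alternative in which they were compared. These were 14 for each gene except Zbtb16, which was not compared in DESeq2 or with at least 10 counts in every tumor. Of 863 comparisons over the 62 genes given singly, 800 kept their direction and side of the threshold, 20 lost and 26 gained a call, and 17 changed sign, none of these among the 9 genes. The number of genes higher in the IFN-γ group (12) was 7 with library size only, 118 with DESeq2 and 150 without the filter on low counts, and 4 to 381 without 1 tumor, 381 without IFN-γ tumor 3. The number lower (5) was 73 with DESeq2, 3 with limma-voom, 70 without the filter and 2 to 112 without 1 tumor, 112 without IFN-γ tumor 3. Of the 9 genes, 2 were called with DESeq2 and without the filter (Tsc22d3 and Fkbp5), and 0 to 2 without 1 tumor, where Sgk1 was called without IFN-γ tumor 3. Of the 50 other glucocorticoid-induced genes, 2 rose with DESeq2, 3 without the filter and 0 to 4 without 1 tumor, and 2 fell with DESeq2, 2 without the filter and 1 to 3 without 1 tumor. Without the genes of the clock list, an alternative chosen after seeing the data, 0 rose and 0 fell. Without IFN-γ tumor 3, edgeR also called 1 Klf gene and 2 stress genes lower, and 1 immediate early gene higher and 1 lower. The cause of these differences was not tested, apart from the smaller number of genes or tumors in some fits.

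Deviations from the group means were uncorrelated or opposed in tumors that share a number (r = -0.241, -0.00473 and -0.221), and none correlated best with its own number, so the numbers were not taken as pairs. With the replicate block, 5 genes were higher and 2 lower, and 0 of the 9 genes were called.

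Values that changed sign were all near 0. Hsp90ab1 was at -0.034 with library size only, -0.01 with upper-quartile factors, -0.001 with DESeq2, -0.0059 with at least 10 counts in every tumor and -0.034 to 0.048 without 1 tumor. Klf3 was at -0.0074 with library size only and -0.019 to 0.077 without 1 tumor. Without 1 tumor, Anxa1 ranged from -0.041 to 0.093, Egr1 from -0.074 to 0.34, Ldha from -0.00054 to 0.21 and Hspa5 from -0.081 to 0.0089.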

Other observations

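Markers of other cell types showed how mixed the tumors were, and their part in the levels of the glucocorticoid receptor targets was not tested. The 10 T cell markers summed to 65.6, 97.8 and 87.5 CPM in the controls and 124, 150 and 50.5 CPM in the IFN-γ tumors, and the 8 NK cell markers to 53.0, 77.1 and 90.2 CPM and 122, 137 and 43.4 CPM. IFN-γ tumors 1 and 2 were thus above every control for both lists and IFN-γ tumor 3 below. No gene of either list passed the threshold of edgeR, DESeq2 or limma-voom or had an unadjusted p under 0.05. Skeletal muscle markers varied most among the controls, from 155 to 959 CPM, and were at 177 to 513 CPM in the IFN-γ tumors. Fibroblast markers summed to 3420 to 5320 CPM in the controls and 3410 to 5350 CPM in the IFN-γ tumors. B cell, neutrophil and red cell markers had no call in edgeR, with 2, 1 and 1 genes at an unadjusted p under 0.05 and 0 calls in DESeq2 and limma-voom. Mast cell markers, at 315 to 444 CPM, held 0 calls in the 3 tools and 0 genes at an unadjusted p under 0.05. Endothelial markers summed to 223 to 286 CPM in the controls and 187 to 246 CPM in the IFN-γ tumors. They held no call in edgeR or limma-voom, while 2 were lower at an unadjusted p under 0.05 and DESeq2 called 1 lower. Of the 10 macrophage markers none passed in edgeR or limma-voom and 2 were called higher by DESeq2. At an unadjusted p under 0.05, 6 were higher and 1 was lower.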
